A study of Mus musculus with 6 samples.

Results

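The miR-130 and miR-301 family was followed in small RNA libraries of mouse epididymal white adipose tissue (WAT). Its members were taken by name: every listed arm of the precursors miR-130a, miR-130b, miR-301a, miR-301b and miR-454. This gave 9 of the 1983 rows of the deposited table, and 4 of the 9 were above the lowest value the table records in at least 3 of the 6 libraries. The 4 were miR-130a-3p, miR-301a-3p, miR-130b-3p and miR-130b-5p, out of 329 rows in the whole table that met the same condition. The other 5 rows, miR-130a-5p, miR-301a-5p, miR-301b, miR-454-3p and miR-454-5p, were at the lowest value in all 6 libraries.

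Adipose tissue makes its own angiotensinogen (Agt), the precursor of the hormone angiotensin II. The Agt Tg mice carried an Agt transgene driven by the ap2 promoter, which is active in adipocytes and also, to a lesser degree, in macrophages, and the Wt mice lacked it. All were C57BL6/J males. There were 3 libraries per genotype, each taken here as 1 mouse, although no label states this. The labels give a chow diet and the methods a low fat diet for all of them, and ages were not given. Small RNA libraries do not measure Agt mRNA, so overexpression of the transgene could not be checked in these samples.

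miRNAs are cut from a hairpin precursor as a pair of strands, the 5p and the 3p arm, of which usually only 1, the guide, is kept in the silencing complex. The guide finds messenger RNAs mainly by pairing of its seed, bases 2 to 8. Guides of the miR-130 and miR-301 family are known to repress Pparg, the nuclear receptor gene that drives adipocyte differentiation, and miR-130 holds back the conversion of preadipocytes into fat cells. Pparg mRNA was not analysed here.

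The guides are shown first because they share the seed by which the family is defined. The mature mouse sequences are those of RefSeq (GRCm38.p6), written 5′ to 3′ with the seed in capitals.
miR-130a-3p: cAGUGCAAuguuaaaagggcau
miR-130b-3p: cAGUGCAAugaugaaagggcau
miR-301a-3p: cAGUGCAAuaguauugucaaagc
miR-130a-3p shares its first 10 bases with miR-130b-3p and its first 9 with miR-301a-3p. Between miR-130a-3p and miR-130b-3p, 20 of 22 bases were identical, and the substitutions, counted from the 5′ end with the base of miR-130a-3p first, were U11A and A13G. Between miR-130a-3p and miR-301a-3p, 12 of the first 22 bases were identical, so that outside the shared start these guides differed at most positions. The RefSeq table held 7 mature mouse miRNAs with this seed among 1679 names. The others were miR-721, miR-130c, miR-6341 and miR-6389, which the deposited table, with its human names, does not list. RefSeq held no mature mouse miR-301b-3p, so that guide is not among the 7. The Mir301b hairpin does hold the letters of the seed, outside the mature arm that RefSeq lists. The human rows miR-3666 and miR-4295, which also carry the seed, were at the lowest value in all 6 libraries.

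The precursors are shown because the hairpins gave different numbers of detected arms, with the mature arms that RefSeq lists in capitals.
Mir130a: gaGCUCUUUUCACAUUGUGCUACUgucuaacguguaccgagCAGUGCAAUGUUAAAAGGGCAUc
Mir301: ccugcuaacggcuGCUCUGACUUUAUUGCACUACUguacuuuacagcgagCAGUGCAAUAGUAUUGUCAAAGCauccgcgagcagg
Mir130b: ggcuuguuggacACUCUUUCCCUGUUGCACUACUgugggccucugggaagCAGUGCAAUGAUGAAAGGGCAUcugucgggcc
Mir130a, at chr2:84741115-84741178 on the minus strand, lies in no other gene of GENCODE M21. Mir301, the mouse gene of miR-301a, lies at chr11:87113004-87113089 on the plus strand, within Ska2, a gene of the spindle and kinetochore complex, and overlaps 0 of its exons. Mir130b, at chr16:17124061-17124142 on the minus strand, lies within 2610318N02Rik on the same strand and overlaps 0 of its exons. Mir301b, at chr16:17124400-17124496, is its neighbour, 257 bases away in the same gene. The 5p arms of miR-130b, miR-301a and miR-301b end in the same 10 bases, uugcacuacu, and these hold the complement of the guide seed. miR-130b-5p, the only 5p arm detected, has a seed of its own:
miR-130b-5p: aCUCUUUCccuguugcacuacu

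A full match to the seed in a transcript reads TTGCACT, called an 8mer site when an A follows it. The longest annotated 3′ UTR of Pparg, 204 bases, held 1 such match, an 8mer at bases 42 to 48, chr6:115490237-115490243 on the plus strand (GRCm38, GENCODE M21), shown with the match in capitals:
Pparg: ctattgaTTGCACTattattt
Its coding sequence held 0. A match was present in the longest 3′ UTR of 9.97% of 21027 genes, and in 1.63% of the 4665 genes whose 3′ UTR was between 0.5 and 2 times as long as that of Pparg. Among 9 adipocyte genes, 2 had a match, Pparg and Lep, which encodes leptin. The 7 without one were Ppargc1a, Cebpa, Cebpb, Adipoq, Fabp4, Lpl and Slc2a4. Among 8 genes of the renin-angiotensin system, 1 had a match, Agtr1a, which encodes the main receptor of angiotensin II. Its match, at chr13:30382642-30382648 on the plus strand, is shown because of its place in that system:
Agtr1a: atcaaagTTGCACTgcttgta
The 3′ UTRs of Agt, Ren1, Ace, Agtr1b, Agtr2, Mas1 and Atp6ap2 held none. Of 10 genes of p38 kinase signalling, endoplasmic reticulum stress and inflammation, 1 had a match, Atf6, a sensor of stress in the endoplasmic reticulum. Of 14 genes listed as known targets of the family, 12 had one, among them Tgfbr2 and Csf1, with 1 and 3 matches. These genes were chosen because they are known targets, so their share is no test of the seed. Their 3′ UTRs were longer, with a median of 1981.5 bases, compared with 960 bases over all genes. These are matches of letters, and no binding was measured.

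Levels are given as normalised reads, that is reads scaled to a library of 10000000, or as their log2. Values under 10 normalised reads had been raised to 10, a log2 of 3.32, here called the floor. The library totals were worked out from the values, as the smallest that made every value above the floor whole reads. The totals so found were between 6387766 and 10562634 reads, and the floor stood for 6.39 to 10.6 reads. Read counts given below rest on these totals. Wt replicate 2 stood apart from the other libraries. Its summed level of 5 miRNAs typical of epididymis and testis was 16.43, compared with 9.76 to 10.49 elsewhere, and that of 6 epithelial miRNAs was 13.90, compared with 8.20 and 7.63 in Wt replicates 1 and 3 and 7.53, 6.89 and 7.36 in Agt Tg replicates 1, 2 and 3. The epithelial sums of the genotypes did not overlap, and leaving out Wt replicate 2 could not change that. The closest were Wt replicate 3 at 7.63 and Agt Tg replicate 1 at 7.53. Of the single tested rows, 17.6% also had groups without overlap. All 4 tested epithelial miRNAs had a negative log2 fold change, compared with 67.5% of the 329 tested rows. Without Wt replicate 2 it was 3 of 4, compared with 65.7%. Of the 4, miR-205-5p passed the threshold used below in both cases. Its log2 fold change was −2.17 (limma adjusted p = 0.382), and −1.48 without Wt replicate 2 (limma adjusted p = 0.299). That threshold was passed by 16 of the 329 rows with all libraries and by 23 without Wt replicate 2. The part of these epithelial values in the family's levels was not tested. Of the former list miR-34b-5p and miR-34c-3p, and of the latter miR-429, were at the floor in every library. The summed level of 6 adipocyte miRNAs was 18.82 to 19.33 in all libraries, with miR-193b-3p and miR-455-3p at the floor. Most of that sum was miR-143-3p, at 18.49 to 19.12, so the sum is a weak check of the tissue label. The summed endothelial markers were at 16.11 to 16.85, the erythroid ones at 15.64 to 17.67, the muscle ones at 8.92 to 10.73 and the liver marker miR-122-5p at 6.23 to 7.18, and the genotypes overlapped in each of these lists. Wt replicate 2 had the lowest erythroid sum, compared with 16.51 to 17.67 elsewhere. It also had the highest muscle sum, compared with 8.92 to 9.35 elsewhere. Results are therefore also given without Wt replicate 2.

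miR-130a-3p was by far the most abundant member. It was at 13.44, 13.43 and 13.54 in Wt replicates 1, 2 and 3 and at 13.11, 13.63 and 13.92 in Agt Tg replicates 1, 2 and 3 (log2 levels). The 3 Wt mice lay close together, and the Agt Tg mice lay on both sides of them. On the linear scale this was 11349 ± 504 normalised reads in Wt and 12339 ± 3320 in Agt Tg mice (SD, n = 3). It made up between 0.166% and 0.282% of the reads on listed miRNAs and ranked between 40 and 52 by level. Of the 329 tested rows, 97.0% had a larger SD among the Wt mice, and 42.6% had a larger SD among the Agt Tg mice. Between 8112 and 16335 reads stood behind each value.

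miR-301a-3p, the guide of the hairpin in Ska2, followed. Its log2 levels were 10.67, 11.18 and 10.20 in Wt replicates 1, 2 and 3 and 10.67, 10.07 and 10.65 in Agt Tg replicates 1, 2 and 3. The highest value was that of Wt replicate 2, the library with the epididymal and epithelial miRNAs, and the remaining 5 values of both genotypes overlapped. The means were 1710 ± 578 normalised reads in Wt and 1436 ± 315 in Agt Tg mice (SD, n = 3), with 685 to 1822 reads behind each value.

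miR-130b-3p was at 7.06, 6.95 and 6.74 in Wt replicates 1, 2 and 3 and at 7.19, 5.50 and 6.03 in Agt Tg replicates 1, 2 and 3 (log2 levels). The 3 Wt values were close together, Agt Tg replicates 2 and 3 were below all of them, and Agt Tg replicate 1 was above all of them. The Agt Tg values spanned 3.21-fold and the Wt values 1.25-fold. Behind these values stood 100, 97 and 105 reads in Wt and 151, 29 and 69 reads in Agt Tg mice. miR-130b-5p, the other arm, was at 7.13, 6.52 and 5.20 in Wt and at 6.96, 5.29 and 4.88 in Agt Tg mice, in the same order of replicates. Both genotypes held high and low values, with Wt replicate 3 close to Agt Tg replicates 2 and 3, and the Wt values alone spanned 3.83-fold. Few tested rows varied more than the arms of miR-130b among the Agt Tg mice, 7.60% for the 3p and 3.65% for the 5p arm. Among the Wt mice it was 87.2% for the 3p and 6.99% for the 5p arm, so the 5p arm varied widely in both genotypes.

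**Figure D1:**
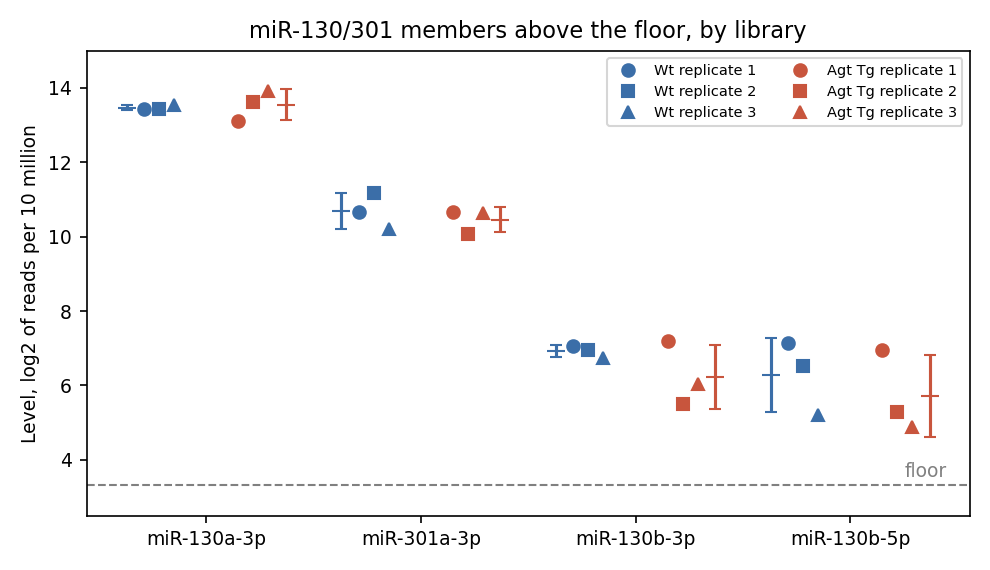
Level of each member above the floor (log2 of normalised reads) in each library, with the mean and SD of each genotype beside its points. miR-130a-3p lies between 13.11 and 13.92, miR-301a-3p between 10.07 and 11.18 and both arms of miR-130b between 4.88 and 7.19, and the genotypes overlap in all 4 rows.

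The order miR-130a-3p, miR-301a-3p, miR-130b-3p held in each library, and the 6 values of these guides did not overlap between neighbours. miR-130a-3p exceeded miR-301a-3p by 4.73-fold to 11.8-fold, and miR-301a-3p exceeded miR-130b-3p by 11.02-fold to 24.6-fold. Levels of different miRNAs in such libraries also depend on how well each is captured, which was not measured. The values of miR-130b-3p and miR-130b-5p overlapped and gave no order. The ratio of miR-130a-3p to miR-130b-3p, which does not depend on the scaling of a library, was 83.2, 88.9 and 112 in the Wt mice and 60.8, 279.7 and 237 in Agt Tg replicates 1, 2 and 3. The Agt Tg mice therefore held both the lowest ratio and the 2 highest ones, and the ratio was not tested, since it was chosen after the values were seen.

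The precursors differed in how their reads fell on the arms. For miR-130a and miR-301a the 5p arm was at the floor in all 6 libraries, so that miR-130a-3p was at least 885-fold to 1546-fold and miR-301a-3p at least 107-fold to 232-fold above its partner arm. For miR-130b both arms were present. The 3p arm took 48.8% of the miR-130b reads in Wt replicate 1 (exact Clopper-Pearson 95% interval 41.8% to 55.8%), 57.4% in Wt replicate 2 (49.6% to 65.0%) and 74.5% in Wt replicate 3 (66.4% to 81.4%). The Wt libraries thus ran from nearly equal arms to a clear excess of the 3p arm. In the Agt Tg mice the share was 53.9% (47.9% to 59.9%), 53.7% (39.6% to 67.4%) and 69.0% (59.0% to 77.9%). These intervals cover counting error only. The mean log2 ratio of the 3p to the 5p arm was 0.63 ± 0.83 in Wt and 0.53 ± 0.54 in Agt Tg mice (SD, n = 3), and the difference of −0.10 was smaller than the spread between mice (exact permutation test, two-sided, p = 0.8, where 3 against 3 cannot give less than 0.1). Without Wt replicate 2 the difference was −0.21.

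**Figure D2:**
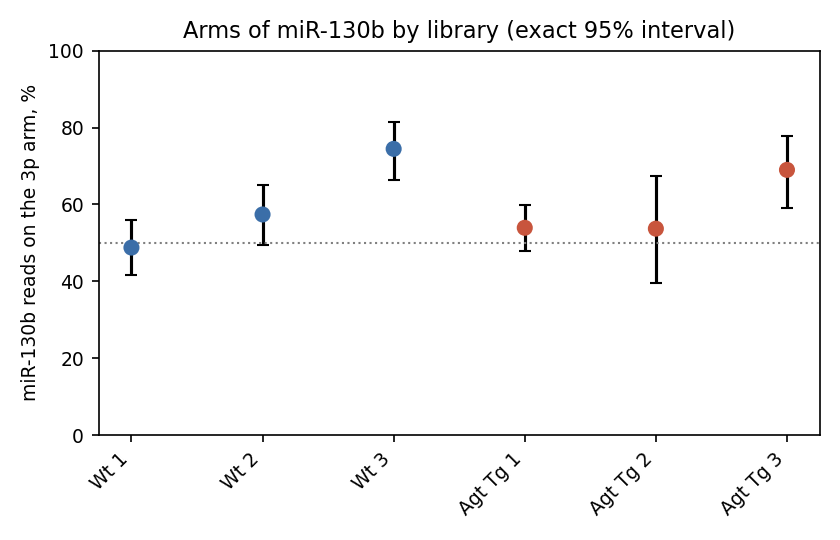
Share of the miR-130b reads on the 3p arm in each library (percent), with exact 95% intervals for counting error and a dotted line at equal arms. The share runs from 48.8% to 74.5% among the Wt and from 53.7% to 69.0% among the Agt Tg mice.

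The rows at the floor held fewer than 10 normalised reads in every library. miR-301b is encoded next to miR-130b, and the floor put miR-301a-3p at least 107-fold to 232-fold above it. RefSeq lists no mature mouse miR-301b guide, so the human and mouse guides were not compared. All rows carry human names, and which sequence this row stands for was not stated. Whether this row could collect mouse reads was not tested. The same holds for miR-454, for which no RefSeq entry was matched.

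The guides taken to share the seed were summed, with rows at the floor counted at the floor. They were miR-130a-3p, miR-130b-3p, miR-301a-3p, miR-301b and miR-454-3p. The seeds of the miR-301b and miR-454-3p rows were not checked, and together these rows made up 0.117% to 0.188% of the total. The total was 12902, 13467 and 13232 normalised reads in Wt replicates 1, 2 and 3. In Agt Tg replicates 1, 2 and 3 it was 10649.5, 13837 and 17155. The Wt mice spanned a narrow range, with 1 Agt Tg mouse below and 2 above it. On the log2 scale the difference was 0.05, from 13.69 ± 0.03 in Wt to 13.73 ± 0.34 in Agt Tg mice (SD, n = 3), smaller than the spread between the Agt Tg mice (exact permutation test, two-sided, p = 0.7). It was −0.12 without Agt Tg replicate 3 and 0.22 without Agt Tg replicate 1, and 0.06 without Wt replicate 2. Under TMM scaling, which sets libraries to the same typical level of their shared rows, it was 0.17, and 0.10 as a share of all listed reads (exact permutation p = 0.5 and 0.7).

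The make-up of this total did not separate the genotypes either. miR-130a-3p supplied 86.0% ± 4.2 of it in Wt and 88.4% ± 4.6 in Agt Tg mice, miR-301a-3p 12.9% ± 4.2 and 10.8% ± 4.0, and miR-130b-3p 0.921% ± 0.114 and 0.692% ± 0.586 (SD, n = 3). For each of the 3 the groups overlapped, with exact permutation p = 0.5, 0.6 and 0.5 (two-sided) and 0.6 after Benjamini-Hochberg adjustment over the 3. For miR-130b-3p, Agt Tg replicates 2 and 3 had 0.328% and 0.381%, below the 0.808% to 1.04% of the Wt mice, while Agt Tg replicate 1 had 1.37%. The difference in the share of miR-301a-3p, −2.12 percentage points, came to 0.043 without Wt replicate 2, in which that share was 17.3%. That of miR-130a-3p, 2.35 points, came to 0.191 without the same library, while that of miR-130b-3p stayed at −0.23.

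**Figure D3:**
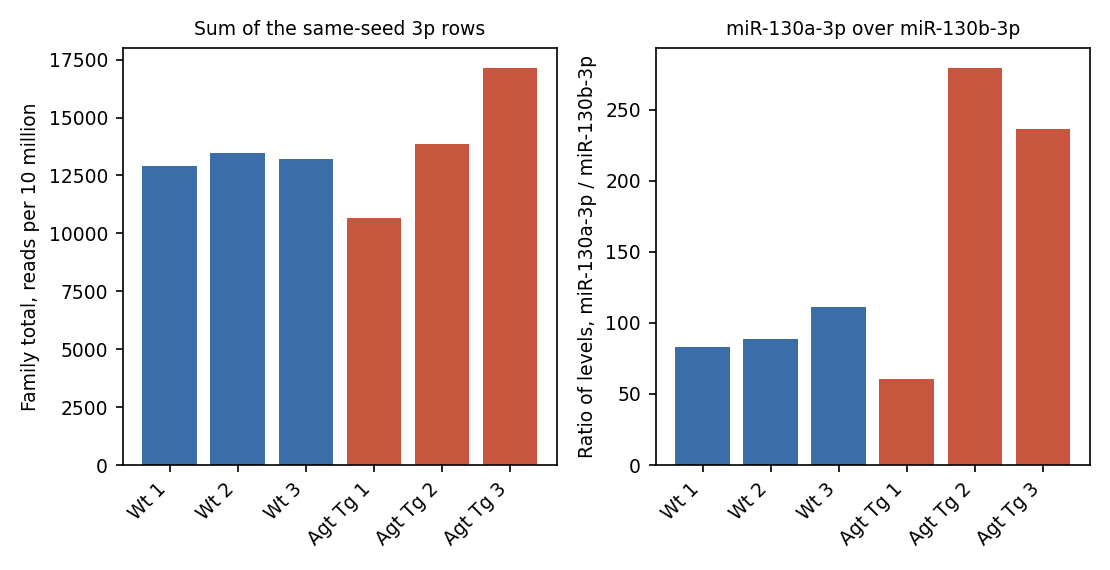
Left, the summed level of the guides taken to share the seed (normalised reads) in each library. Right, the ratio of the levels of miR-130a-3p and miR-130b-3p in the same libraries, with Wt in blue and Agt Tg in red. Agt Tg replicate 1 has the lowest total (10649.5) and the lowest ratio (60.8), and Agt Tg replicates 2 and 3 have the highest of both.

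The genotypes were compared with limma over the 329 rows, and no member passed the threshold, a change of 2-fold or more in either direction with an unadjusted p of 0.05 or less. That is 0 of 4 members, compared with 16 of the 329 rows (4.86%), and 0 of the 329 had an adjusted p under 0.05. With limma-voom it was also 0 of 4, and 0 of 4 had an unadjusted p under 0.05 in either test, compared with 30 rows with limma and 32 with limma-voom. Groups without overlap were seen in 0 of 4 members and in 17.6% of all tested rows. miR-130a-3p had a log2 fold change of 0.08 (standard error 0.24, 95% interval −0.47 to 0.64, limma adjusted p = 0.870). That interval leaves out a change to 2-fold in either direction. For miR-301a-3p the log2 fold change was −0.22 (standard error 0.32, 95% interval −0.97 to 0.52, limma adjusted p = 0.759), and 0.026 without Wt replicate 2. miR-130b-3p had −0.68 (standard error 0.45, 95% interval −1.75 to 0.39, limma adjusted p = 0.587) and miR-130b-5p −0.58 (standard error 0.69, 95% interval −2.20 to 1.05, limma adjusted p = 0.713). The intervals of these arms include both no change and a fall to less than 0.5 times the Wt level. The median over the 4 members was −0.40, beside −0.19 over the 329 rows.

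The value of miR-130b-3p turned on Agt Tg replicate 1. Without that mouse its log2 fold change was −1.15 (standard error 0.33), with a limma unadjusted p = 0.0129 and an adjusted p = 0.187, so that it passed the unadjusted threshold, as did 7.6% of the 329 rows in the same direction. Without Agt Tg replicate 2 it was −0.31, and without Wt replicate 2 it was −0.66. miR-130b-5p had −1.20 without Agt Tg replicate 1 (limma adjusted p = 0.401) and −0.15 without Wt replicate 1. The summed log2 level of 5 leukocyte markers was 15.00 in Agt Tg replicate 2 and 14.84 in Agt Tg replicate 3. It was 15.41 to 15.48 in the other 4 libraries. Not every marker had this order among the Agt Tg mice. miR-142-5p was at 14.15, 13.14 and 12.88 in Agt Tg replicates 1, 2 and 3, but miR-150-5p was at 14.21, 14.37 and 14.28. In Wt replicates 1, 2 and 3 miR-150-5p was at 14.475, 14.59 and 14.60, above all Agt Tg mice. Such groups without overlap were seen in 17.6% of all tested rows. The log2 fold change was negative for 5 of 5 markers, compared with 67.5% of the 329 rows, and 0 of 5 passed the threshold. Their part in the values of miR-130b was not tested. In bulk tissue, fewer cells of a type and less RNA per cell cannot be told apart.

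**Figure D4:**
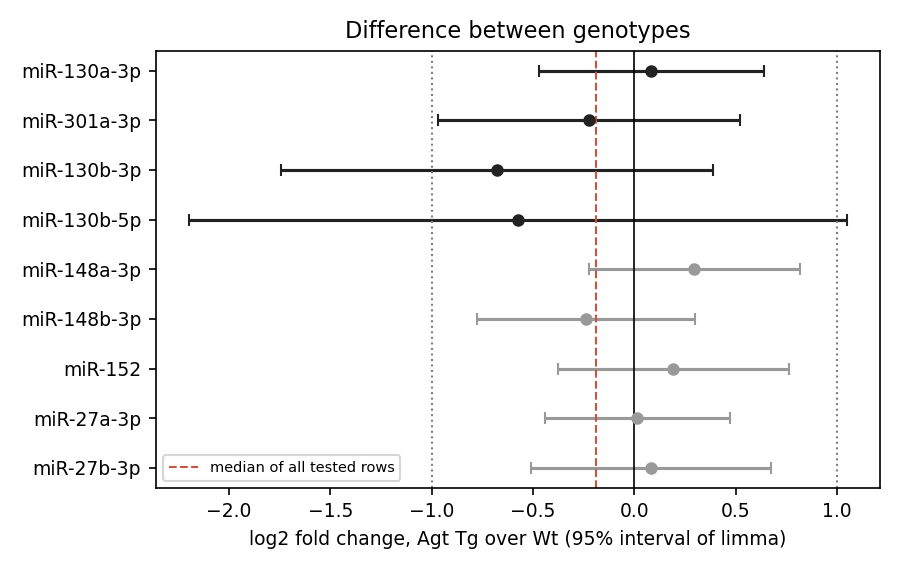
log2 fold change of Agt Tg over Wt with the 95% interval of limma for the 4 members (black) and 5 related miRNAs (grey). Dotted lines mark a log2 fold change of 1 in either direction and the dashed line the median of all tested rows, −0.19. All 9 intervals include 0, and those of both arms of miR-130b are the widest.

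Members of the miR-148 and miR-152 family have a seed shifted by 1 base, and 6 bases, AGUGCA, belong to both seeds. Their mature sequences are shown for that comparison.
miR-148a-3p: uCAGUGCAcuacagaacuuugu
miR-148b-3p: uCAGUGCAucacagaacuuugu
miR-152-3p: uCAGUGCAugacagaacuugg
miR-148a-3p was the highest of them, at 15.66 to 15.99 in Wt and 15.85 to 16.55 in Agt Tg mice (log2 levels), so that it lay above miR-130a-3p in every library. Its log2 fold change was 0.30 (standard error 0.22, limma adjusted p = 0.610). miR-148b-3p had −0.24, with groups that did not overlap, and the row listed as miR-152 had 0.19, and none of the 3 passed the threshold. miR-27a-3p and miR-27b-3p, with another seed, are also known to repress Pparg, and had log2 fold changes of 0.02 and 0.08 (limma adjusted p = 0.965 and 0.878). miR-27b-3p, at 15.73 to 16.59, was above miR-130a-3p in every library, while miR-27a-3p, at 12.90 to 13.34, was near its level. Of 27 further miRNAs known in adipocyte differentiation, 23 were tested and 0 passed the threshold, with 6 positive and 17 negative log2 fold changes and a median of −0.25. Over the 329 rows, 67.5% were negative. Some of the values were set by Wt replicate 2, such as that of miR-375, which was at 15.10 there and at 5.34 to 6.23 elsewhere (log2 levels). Without that library 4 were positive and 19 negative, with a median of −0.20, and 65.7% of the 329 rows were negative. miR-155-5p, miR-193b-3p, miR-211-5p and miR-448 of that list were at the floor throughout.

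The members did not rise and fall together across the 6 libraries. miR-130a-3p was opposite to both arms of miR-130b (Pearson r = −0.74 with the 3p and −0.82 with the 5p arm), the arms of miR-130b went together (r = 0.78), and miR-301a-3p had r = 0.59 with miR-130b-3p and −0.27 with miR-130a-3p. These are descriptions over 6 libraries that share their scaling, without a test. Without Wt replicate 2, r in the same order was −0.74, −0.82, 0.76, 0.60 and −0.23. The 3 rows most like each member were taken among 266 rows above the floor in every library. For miR-130a-3p they were miR-424-5p (r = 0.91), miR-30a-5p (r = 0.88) and miR-1260b (r = 0.87). For miR-301a-3p they were miR-199a-3p and miR-199b-3p, whose values were identical to each other (r = 0.97), and let-7i-5p (r = 0.97). All of these were highest in Wt replicate 2, as miR-301a-3p was, and their r without that library is not given here. miR-130b-3p was most like miR-125b-1-3p (r = 0.98), miR-136-3p (r = 0.96) and miR-411-5p (r = 0.96), and miR-130b-5p was most like miR-222-5p (r = 0.96), miR-16-5p (r = 0.95) and miR-18a-3p (r = 0.93). No row was among the nearest 3 of more than 1 member.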

How the data were processed

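Small RNA libraries of epididymal WAT from 3 Wt and 3 Agt Tg mice were compared, grouped by the titles of the samples. The authors mapped reads to miRBase precursors and kept those on mature miRNAs. The deposited values are on a log2 scale: reads normalised to 10000000 per library, with a floor of 10. The labels give mm10 as the build. The miRBase release was not stated. The scale was worked out from the values: 1924 of 1924 linear values above the floor were whole reads within 0.02. Columns of values without a sample numbered 0.

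Rows above the floor in 3 or more libraries, 329 in all, were fitted with limma 3.58.1 (R 4.3.3; genotype as the only term, variance trend, Benjamini-Hochberg adjustment over the 329 rows). It was checked on simulated data. No label states that each library came from a separate mouse, and if some did not, p-values would measure technical spread. Totals, shares and arm ratios had exact two-sided permutation tests (scipy 1.17.1). Named rows were the members, rows with the same or a shifted seed, miR-27, lists of adipocyte differentiation miRNAs and of adipocyte, endothelial, leukocyte, erythroid, epididymis and testis, epithelial, muscle and liver markers, and the 3 nearest rows by Pearson correlation. A list name with an arm was matched to the row without it where only that was listed. The members and lists were chosen with earlier results of these data known. Sites were searched on the transcript strand in GENCODE M21 (GRCm38). Alternatives were log2(CPM + 1), limma-voom with TMM scaling (30% and 5% trimmed), TMM scaling, scaling to miR-191-5p, other filters, a replicate block, and leaving out each library.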

Additional observations from a re-analysis of the deposited data

How the results depend on the processing

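Of 111 values recomputed under other settings, 102 kept their direction and their side of the threshold, and 7 reversed, all of them with 1 mouse left out. Not all of the 102 could have changed, so their number is no measure of stability. The exact tests cannot give a p under 0.1, so totals, shares and arm ratios could not change side. The replicate block and the filters leave a difference itself as it is, so its direction was fixed there. The count of members at the threshold was 0 under each other scaling, filter, threshold and test, and between 0 and 1 with a mouse left out, the 1 being miR-130b-3p without Agt Tg replicate 1. With each mouse left out, the log2 difference of the family total lay between −0.12 and 0.22, the log2 arm ratio of miR-130b between −0.46 and 0.35 (0.35 without Wt replicate 3, 0.05 without Agt Tg replicate 1, 0.06 without Agt Tg replicate 2), and the share of miR-301a-3p between −4.38 and 0.043 percentage points, that of miR-130a-3p between 0.191 and 4.96 and that of miR-130b-3p between −0.567 and −0.0467. The log2 fold change of miR-130a-3p lay between −0.10 (without Agt Tg replicate 3) and 0.31, that of miR-301a-3p between −0.46 and 0.026 (without Wt replicate 2), that of miR-130b-3p between −1.15 and −0.31 and that of miR-130b-5p between −1.20 and −0.15. Under TMM scaling, which moved the median of all rows from −0.19 to −0.06, miR-130a-3p had 0.21, miR-301a-3p −0.10, miR-130b-3p −0.55 and miR-130b-5p −0.45. The list counts without Wt replicate 2 were added after the data were seen. Without a filter, rows at the floor in all libraries were still left out, since they have no variance. Replicate numbers are shared between the genotypes, but same-numbered libraries did not deviate together (r = 0.22, −0.18 and −0.21 over 329 rows), and not every library correlated best with its own number. With the replicate block 0 of 4 members passed, and the exact p of the family total was 0.75, where 3 pairs cannot give less than 0.25. With 3 mice per genotype, and as few as 25 reads on miR-130b-5p, changes of the miR-130b arms are resolved least.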
